A study of Sus scrofa with 12 samples.

Results

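The myosin heavy chains MYH1, MYH2, MYH4 and MYH7 are 4 of the 2159 genes that carry a listed N6-methyladenosine (m6A) peak in the longissimus dorsi, the long back muscle, of 5-day-old pigs. Their peaks were taken as all entries whose listed gene is one of the 4, which gave 83 of 13487 peaks: 23 on MYH1, 23 on MYH2, 23 on MYH4 and 14 on MYH7. Muscle of 2 breeds was compared, Large White and Ningxiang, with 3 replicates per breed, and nothing but breed separates the groups in the labels. Methylated RNA immunoprecipitation and sequencing (MeRIP-seq) was used, in which mRNA fragments bound by an m6A antibody are sequenced beside an input library, and 1 peak list was deposited per replicate. Whether each numbered replicate is a separate pig is not said in the labels, so a p-value below reflects only how much these samples vary, and that variation may be technical.

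Myosin heavy chains are the motor proteins of the thick filament, and the chain a fibre contains sets how fast it contracts. MYH7 encodes the slow chain of type I fibres, which the heart ventricle also uses. MYH2, MYH1 and MYH4 encode the fast chains of type IIa, IIx and IIb fibres, and longissimus dorsi is a mainly fast muscle. N6-methyladenosine is written on nascent mRNA by a methyltransferase complex. In mammalian transcripts it is known to be dense in long internal exons and around the stop codon, and it is read by proteins that alter RNA decay and translation.

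In all gene models the exons are many and short. MYH4, MYH1 and MYH2 lie next to each other on the minus strand of chromosome 12 (build susScr11), MYH4 at 55190601 to 55215951, MYH1 at 55225686 to 55249342 and MYH2 at 55253925 to 55278278, with gaps of 9734 and 4582 bases between neighbours. MYH7 lies on the plus strand of chromosome 7, at 75650841 to 75672908. The models have 39, 38, 39 and 40 exons for MYH4, MYH1, MYH2 and MYH7. The fast chains are close paralogs, so reads may be shared among them, and the assignment of a peak to one fast gene is uncertain to that extent; how the authors treated such reads is not given in the sources used here.

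Exons were counted from the 3′ end to lay the genes side by side. A peak that crosses a splice junction is deposited as blocks of exon sequence, and an exon with both edges at a junction shows its length. Such lengths were seen in at least 2 of the genes for 8 exons, and in 8 of 8 the genes had the same length. The fifth exon from the 3′ end was 126 bases in MYH1, MYH4 and MYH7, and the fourteenth was 390 bases in MYH1, MYH2 and MYH4. For MYH7 the fifth exon was the only 1 of the 8 with a length, so the matching of its other exons to those of the fast genes by number was not tested. Exons are numbered below from the 3′ end, with exon 1 the last of the transcript. On the minus strand this is the number the files list, because listed numbers rise along the chromosome; on the plus strand it is the reverse. Over the 83 peaks, the exonic length was within 1 base of a multiple of 30 for 100% of them, so a peak edge is not known more finely than that step.

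The peaks of MYH1 and MYH4 lay mostly in exons 4 to 7 and exons 12 to 18, those of MYH2 in parts of the same stretches and near the 5′ end, and those of MYH7 mostly in exons 7 to 9 and 18 to 19. No peak of any gene in any list reached exon 1, which holds the end of the transcript. By midpoint, 0% of the myosin peaks of each list fell in the final 10% of their gene. For peaks of all other genes that share was 34.8% to 36.6% per list, and for the 40 to 41 other genes with at least 30 exons it was 20.3% to 27.1%. Gene length here is genomic, introns included, and a midpoint is that of the genomic span. The 0% does not mean that the final 10% was free of peaks. MYH4 peaks of Large White replicate 3 and of all Ningxiang lists extended into it and covered bases of exon 5 there. The MYH1 peak over exons 2 to 4 in Ningxiang replicate 1 also extended into it, with its midpoint at 89.5%. Of 26 exon positions under a peak in any gene, 5 were, by number, under a peak of some list in all 4 genes: exons 5, 6, 7, 17 and 18. In all 3 fast genes it was 12, where an exon reached in a single list also counts. In MYH2, exon 12 was reached in Ningxiang replicate 3 alone, and exons 15 and 16 in Ningxiang replicate 2 alone. Among the 5, exon 7 alone was under a peak in at least 5 lists of each gene. In MYH7, exon 17 had 14 bases in Large White replicate 3 alone, and exon 6 had 42 in Large White replicate 1 alone. In MYH1, exon 18 had 71 bases in Large White replicate 3 alone.

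**Figure D1:**
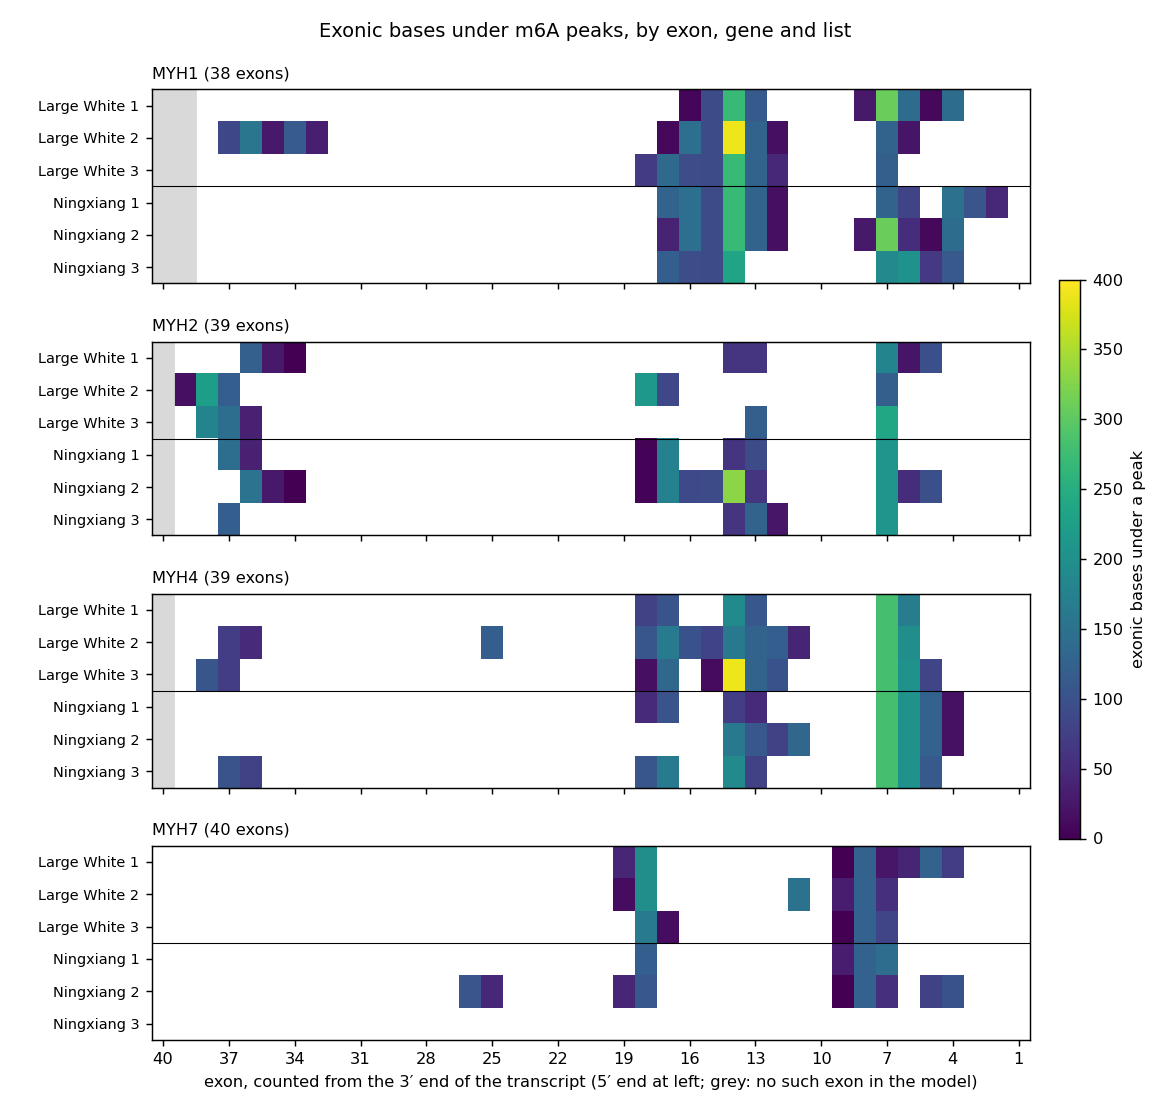
Exonic bases under m6A peaks (colour scale) in each exon of MYH1, MYH2, MYH4 and MYH7, 1 row per list; exons are counted from the 3′ end, with the 5′ end of the transcript at the left, and white marks exons with no listed peak. Exon 7 is covered in 6 of 6 lists in MYH1, MYH2 and MYH4, exon 14 in 6 of 6 in MYH1 and MYH4, and MYH2 has peaks near its 5′ end in 6 of 6.

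MYH1, the type IIx chain, had 2 stretches under a peak in all 6 lists. The longer one ran over 330 exonic bases from 55235245 to 55235917 on chromosome 12, across exons 14, 15 and 16, and took in 234 bases of exon 14 and the 91 bases of exon 15. The other was 61 bases of exon 7, at 55229564 to 55229624. Exon 7 is 309 bases long in MYH1, and peaks covered 309, 128 and 121 bases of it in Large White replicates 1, 2 and 3, and 128, 309 and 188 in Ningxiang. Exon 7 was thus covered whole in 1 list of each breed and in part in the other 4. Exon 13, of 127 bases, was covered in 5 lists and not in Ningxiang replicate 3. Near the 5′ end MYH1 had a peak in 1 list only, Large White replicate 2, over 420 bases of exons 33 to 37.

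MYH4, the type IIb chain, had the longest exon sequence shared by all lists. A stretch of 451 exonic bases, from 55193935 to 55195033 on chromosome 12, lay under a peak in 6 of 6 lists. It held 282 bases of exon 7 and 169 of exon 6, and the 282 bases of exon 7 were the same in every list. A second shared stretch, of 121 bases from 55198298 to 55198930, crossed the junction of exons 13 and 14. In exon 14 the 5 lists other than Large White replicate 3 covered 73 to 192 bases of MYH4, next to exon 13. In MYH1 the stretch of exon 14 shared by all 6 lists was on the other side, next to exon 15. The side next to exon 13 was also under a MYH1 peak in each list but Ningxiang replicate 3. In Large White replicate 3 the whole 390 bases were covered in MYH4. Exons 17 and 18 of MYH4 were under a peak in 5 lists and not in Ningxiang replicate 2.

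MYH2, the type IIa chain, shared 1 stretch among all lists, 121 bases of exon 7 at 55257917 to 55258037 on chromosome 12. Exons 13 and 14 were covered in 5 and 4 lists. Of the 2012 exonic bases of MYH2 under a peak in any list, 6.01% were under a peak in all 6, against 16.3% of 2397 bases in MYH1 and 24.8% of 2310 in MYH4. The share found in a single list was 38.8% in MYH2, 41.3% in MYH1, 33.6% in MYH4 and 46.0% of 1168 bases in MYH7.

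The first 6 exons of MYH2 held a peak in all 6 lists, against 1 list for MYH1, 3 for MYH4 and 0 for MYH7. These 5′ peaks of MYH2 did not share 1 site: they covered parts of exons 34 to 36 in Large White replicate 1 and Ningxiang replicate 2, exons 36 and 37 in Ningxiang replicate 1, exon 37 alone in Ningxiang replicate 3, exons 36 to 38 in Large White replicate 3 and exons 37 to 39 in Large White replicate 2. In 5 of 6 lists the 5′ peak had the highest fold over input of any MYH2 peak in that list, where the fold is the authors' linear ratio of immunoprecipitated over input signal. In Large White replicate 2 it was 5.64, against at most 2.49 for the other MYH2 peaks of that list. In Large White replicates 1 and 3 it was 2.45 and 2.49, against at most 1.80 and 1.86. In Ningxiang replicate 2 it was 2.89 against 2.02, and in replicate 1 it was 2.04 against 2.03. Ningxiang replicate 3 went the other way, with 1.62 against 1.92. The MYH2 peak of Large White replicate 2, at 55276365 to 55278278, is listed in the files as a 3′ untranslated region. It ends at the start site of the minus-strand gene and covers exons 37 to 39 of 39, so it lies at the 5′ end.

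In MYH4 the 5′ peaks showed no such order. The peak in exons 36 and 37 had the highest fold of the gene in Ningxiang replicate 3, with 3.65 against at most 2.69. Large White replicate 2 had a peak in the same exons with a fold of 1.61, and replicate 3 had one in exons 37 and 38 with 1.74, each the lowest fold of the gene in its list.

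MYH7, the slow chain, had peaks in 5 of 6 lists and none in Ningxiang replicate 3 by the listed gene. In those 5 lists a stretch of 150 exonic bases over exons 7 to 9, from 75668711 to 75669546 on chromosome 7, was covered throughout, with the 125 bases of exon 8 whole in each. A second stretch of 31 bases, at 75662061 to 75662091, lay in exon 18. Exons 12 to 16 of MYH7 had no peak in any list; the exons of those numbers carried peaks in the fast genes. Exon 8 was under a MYH7 peak in 5 lists, while among the fast genes it was touched in 2 lists of MYH1. Exon 9 was touched in the same 5 lists of MYH7 and in no fast gene. It had 1 base in Large White replicates 1 and 3 and Ningxiang replicate 2. In Large White replicate 2 and Ningxiang replicate 1 it had 31. That is within about 1 step of a peak edge, so exon 9 does not set MYH7 apart.

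The MYH7 entry of Ningxiang replicate 3 was empty by the listed gene, although a peak was called on MYH7 there. Each list carries the gene ID used when the peak was called and, separately, the nearest gene assigned afterwards. In 3 lists a peak called on MYH7 is listed under MIR208B, the microRNA gene at 75667786 to 75667865 inside an intron of MYH7. These peaks crossed exons 10 and 11, with 240 exonic bases and a fold of 1.62 in Large White replicate 3, 299 bases and 1.65 in Ningxiang replicate 2, and 150 bases and 1.59 in Ningxiang replicate 3. Counted as MYH7 they raise its peaks from 14 to 17 and its lists from 5 to 6. They do not add a stretch common to all 6 lists. In Ningxiang replicate 3 the stretches over exons 7 to 9 and in exon 18 remained without a listed peak. That places them below the authors' calling threshold and does not show that m6A was absent.

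By p-value the myosin peaks stood near the top of every list, while most of their folds were low. Of the 83, 76 were among the strongest 5% of their list by p and 38 among the strongest 1%. For 75 of the 83 the fold was below the median of their list. The median fold of the 83 was 1.81, with a range of 1.56 to 5.64. Per list the myosin median was 1.80 to 1.92, and that of all other peaks 2.42 to 2.61. The median log10 p of the myosin peaks was -744 to -187 per list, and that of other peaks -10.95 to -9.34. Depth and transcript level are unknown from these lists, and their part in the p-values and folds was not tested. These are the authors' values for each peak, used to describe peaks within a list.

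MYH1 had the lowest p of the 4 genes in 6 of 6 lists, and its best peak ranked among the first 3 of the list in each. Its lowest log10 p was -5740, -6070 and -5120 in Large White replicates 1, 2 and 3, and -6730, -5280 and -7050 in Ningxiang. MYH4 came next in 5 of 6 lists; in Large White replicate 3 its lowest value was -382, against -639 for MYH7 and -554 for MYH2. The other Large White values of MYH4 were -1480 and -2740, and its Ningxiang values were -1770, -3660 and -2740. CKM, the muscle creatine kinase, had the first rank by p in each list. All 14 MYH7 peaks had a fold below the median of their list, and the highest was 2.38, in Large White replicate 1.

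**Figure D2:**
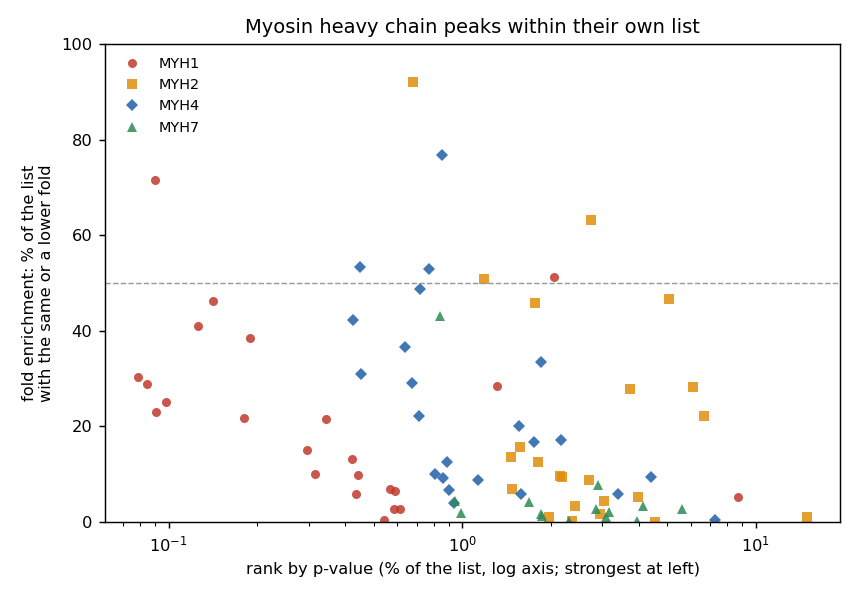
Rank by p-value (x axis, percent of the list, log scale, strongest at the left) against fold enrichment (y axis, percent of the list with the same or a lower fold) for the 83 peaks of MYH1, MYH2, MYH4 and MYH7; the dashed line marks the middle of the list by fold. Of the 83 points, 76 lie at or left of 5%, and 75 lie below the dashed line.

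The amount of exon sequence under peaks overlapped between the breeds for all 4 genes. MYH1 had 1109, 1350 and 961 exonic bases under peaks in Large White replicates 1, 2 and 3, and 1289, 1229 and 1110 in Ningxiang. All Ningxiang values lay within the Large White range. The means were 1140 ± 196 (SD, n = 3) and 1209 ± 91.1 (SD, n = 3), a difference smaller than the Large White SD (exact permutation test, two-sided p = 0.6). MYH2 had 574, 781 and 721 bases in Large White and 721, 1293 and 541 in Ningxiang, where replicate 2 stood highest. Its means were 692 ± 107 and 852 ± 393 (SD, n = 3 each; exact permutation p = 0.9).

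MYH4 had 932, 1622 and 1531 bases in Large White and 902, 1111 and 1322 in Ningxiang. The 2 highest values were from Large White, but replicate 1 of that breed lay near the lowest. The means were 1362 ± 375 and 1112 ± 210 (SD, n = 3 each; exact permutation p = 0.3). MYH7 had 630, 570 and 390 bases in Large White and 419, 661 and 0 in Ningxiang. Its highest and its lowest list were both Ningxiang, and the means were 530 ± 125 and 360 ± 334 (SD, n = 3 each; exact permutation p = 0.7). With the 3 peaks listed under MIR208B included, the difference between the MYH7 means fell from 170 to 100.3 bases.

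Of the 4 genes, 0 had all lists of one breed beyond all lists of the other, against 231 of the 2159 genes with a peak, 10.7%. By direction, 0 of the 4 had Large White above, against 7.78% of all genes, and 0 had Ningxiang above, against 2.92%. With 3 lists against 3 the smallest two-sided p is 0.1. That is also the share of genes without ties that would separate under random labels, so the 231 are not a count of genes that differ. Of the 2159 genes, 771 had a peak in all 6 lists, so the share is not one of genes with peaks as regular as those of the myosins. After Benjamini-Hochberg adjustment of the exact permutation p-values over the 2159 genes the adjusted p was 1 for each myosin, and the smallest over all genes was 0.935. The number of peaks per list overlapped between breeds as well. MYH1 had 4, 3 and 4 peaks in Large White and 4 in each Ningxiang list, MYH2 4, 3 and 3 against 4, 6 and 3, MYH4 3, 6 and 4 against 3, 3 and 4, and MYH7 3, 3 and 2 against 2, 4 and 0. Here 0 of the 4 genes had breeds that did not overlap, against 3.84% of all genes, of which 2.5% had Large White above and 1.34% Ningxiang above (exact permutation p = 0.7 to 1, n = 3 per breed, adjusted p = 1 for each).

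**Figure D3:**
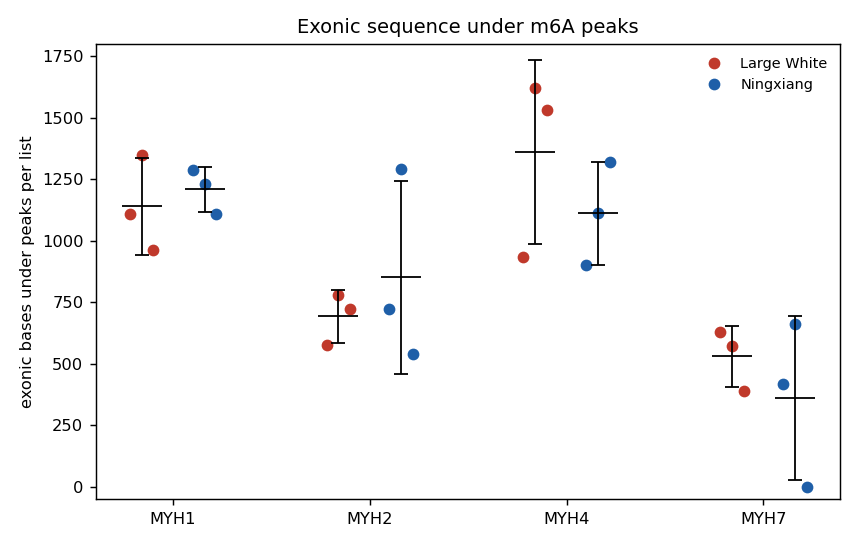
Exonic bases under m6A peaks per list (y axis) for each gene, Large White in red and Ningxiang in blue; each point is 1 list, and the black bar and whiskers are the mean ± SD of 3 lists. The breeds overlap in each gene, and the Ningxiang MYH7 point at 0 is replicate 3.

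Ordered by mean over the 6 lists, MYH4 had the most exonic bases under peaks, 1237 ± 304 (SD, n = 6), followed by MYH1 with 1175 ± 142, MYH2 with 772 ± 272 and MYH7 with 445 ± 244. The ranges of MYH4 and MYH1 overlapped over most of their extent, while by the listed gene those of MYH1 (961 to 1350) and MYH7 (0 to 661) did not meet. Among all 2159 genes by this mean, MYH4 ranked 46, MYH1 53, MYH2 135 and MYH7 387. The MYH7 mean, range and rank leave out the peaks listed under MIR208B. Those held 240 exonic bases in Large White replicate 3, 299 in Ningxiang replicate 2 and 150 in Ningxiang replicate 3. Ningxiang replicate 2 is also the list with 661 bases, so with them the MYH7 range would nearly reach that of MYH1.

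Along the gene, MYH2 peaks lay nearer the 5′ end than those of the other fast chains. The position of each covered exonic base was taken as a percent of the gene's length from the 5′ end and averaged per list. For MYH2 it was 62.9%, 39.3% and 43.6% in Large White and 56.4%, 63.0% and 61.4% in Ningxiang. For MYH1 it was 73.9%, 45.6% and 62.0% against 70.0%, 70.4% and 71.8%, and for MYH4 74.5%, 65.6% and 67.6% against 79.8%, 79.4% and 67.4%. For MYH7 it was 72.7%, 69.0% and 68.4% in Large White, and 74.0% and 65.1% in the 2 Ningxiang lists with a listed peak.

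Within lists, the MYH2 mean position was lower than that of MYH4 in 6 of 6, with a difference of -17.96 ± 8.07 percentage points (SD, n = 6; exact two-sided sign-flip permutation p = 0.0313, adjusted p = 0.0938 over the 6 pairs of genes). It was lower than that of MYH1 in 6 of 6 as well, by 11.2 ± 4.43 points (SD, n = 6; exact permutation p = 0.0313, adjusted p = 0.0938), and lower than that of MYH7 in 5 of 5 lists, with a difference of -16.8 ± 11.1 points (SD, n = 5; exact permutation p = 0.0625, adjusted p = 0.125). The raw values 0.0313 and 0.0625 are the smallest that 6 and 5 lists allow, and no pair passed 0.05 after adjustment. The other 3 pairs did not keep 1 direction. MYH1 minus MYH4 was -6.78 ± 8.46 points (n = 6, exact permutation p = 0.0938, adjusted p = 0.141), MYH1 minus MYH7 -5.47 ± 11.02 (n = 5, exact permutation p = 0.438) and MYH4 minus MYH7 3.55 ± 6.89 (n = 5, exact permutation p = 0.375).

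Between breeds the positions overlapped. Large White minus Ningxiang was -10.2 points for MYH1, -11.6 for MYH2 and -6.31 for MYH4 (exact permutation p = 0.4, 0.3 and 0.3, n = 3 per breed) and 0.441 for MYH7 (3 against 2 lists, exact permutation p = 1), over 4 comparisons. These differences moved with single lists. Without Large White replicate 2, the list with the MYH1 peak over exons 33 to 37, they were -2.77 points for MYH1 and -6.99 for MYH2. Without Large White replicate 1 they were -16.9 for MYH1 and -18.8 for MYH2, and the remaining lists of the breeds did not overlap (exact permutation p = 0.1 for each, the smallest that 2 lists against 3 allow). For MYH4 the difference was -10.4 without Ningxiang replicate 3, where the remaining lists did not overlap either (exact permutation p = 0.2). It was -4.17 without Ningxiang replicate 1 and -4.36 without Ningxiang replicate 2. With peak midpoints in place of covered bases, the MYH2 difference was -1.70.

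**Figure D4:**
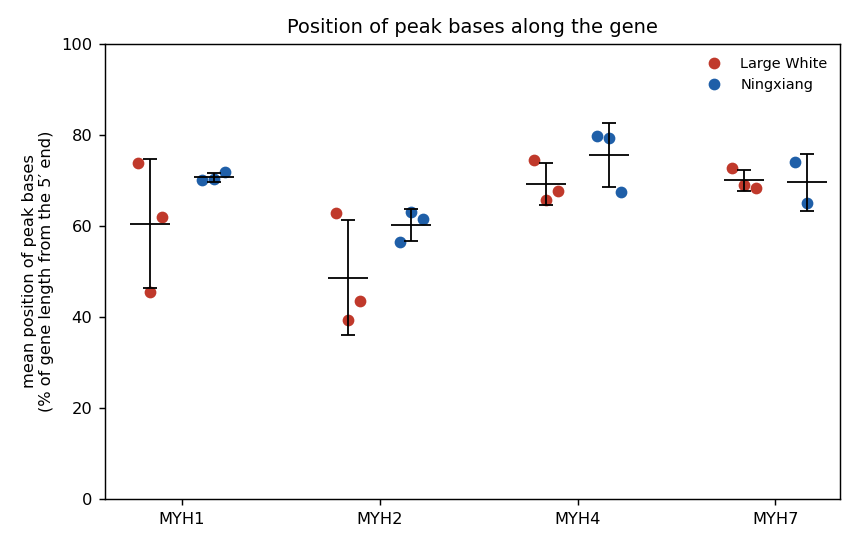
Mean position of the exonic bases under peaks (y axis, percent of the gene's length from the 5′ end, introns included) per list, Large White in red and Ningxiang in blue; bars and whiskers are the mean ± SD over the lists with a peak (3, and 2 for Ningxiang MYH7). MYH2 has the lowest values, down to 39.3%, and MYH4 the highest, up to 79.8%.

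At the level of single bases, few stretches lay under a peak in every list of 1 breed and in no list of the other, and each was about 1 step of peak length. MYH1 had 29 bases of exon 17 under Ningxiang peaks alone, at 55236150 to 55236178, and MYH4 had 30 bases of exon 5, at 55192221 to 55192250. MYH7 had 30 bases of exon 18 under Large White peaks alone, at 75662151 to 75662180. MYH2 had none. Each of the 3 adjoins sequence that carries peaks in both breeds, and each has a peak edge of some list at its border. In MYH4 the adjoining Large White peak was that of replicate 3 alone. Exon 5 of MYH4 had no peak in Large White replicates 1 and 2, and the 30 bases lay inside the peaks of Ningxiang replicates 1 and 2. In MYH7 the adjoining Ningxiang peak was that of replicate 1 alone. With 3 lists against 3, none can be called different on its own.

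Other genes of the thick filament were read from a list of 35. Of these, 10 have a curated RefSeq transcript, 7 had a peak in any list, and none of those without such a transcript had one. MYBPH, a myosin-binding protein, and MYL9, a regulatory light chain of smooth muscle and non-muscle myosin, had peaks in all 6 lists. MYBPH had 150, 120 and 120 exonic bases under peaks in Large White and 120, 180 and 120 in Ningxiang, and MYL9 386, 208 and 505 against 208, 238 and 387. MYL1, the alkali light chain of fast fibres, had peaks in 5 lists and none in Ningxiang replicate 1, with folds of 1.80 to 1.94, and its best peak was among the first 4 by p in each of those 5. MYL6, a light chain of smooth muscle and non-muscle myosin, and HSP90AA1, a chaperone of myosin folding, had peaks in 4 lists each. UNC45B, the myosin chaperone, and SMYD1, a methyltransferase of myofibril assembly, had a peak in Large White replicate 3 alone, of 120 bases each. MYL2 and MYL3, light chains of slow fibres, and MYLPF, the fast regulatory light chain, have a curated transcript and had no listed peak. Of the 7, 0 had all lists of one breed beyond all of the other, against 10.7% of all genes with a peak (exact permutation p = 0.3 to 1, n = 3 per breed, where 0.1 is the smallest possible).

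Genes with amounts of covered exon sequence most like those of each chain were found by the distance of log2(bases + 1) over the 6 lists, among 768 other genes with a peak in all of them. They were RAB8A, KLF4 and PLAGL1 for MYH1, at distances of 0.557 to 0.614. For MYH2 they were SUOX, INTS3 and TNNT2, at 0.785 to 0.819, and for MYH4 PALMD, OLFML2A and RAB8A, at 0.649 to 0.668. No nearest gene is given for MYH7, because its entry of 0 in Ningxiang replicate 3 cannot be matched by genes that have a peak in all lists.

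Per list the series held 2034 to 2533 peaks on 1310 to 1542 genes. Of 12 markers of skeletal muscle 9 have a curated transcript and 6 had a peak in all lists: CKM, DES, RYR1, ATP2A1, TNNT3 and MYOG. ACTA1, the skeletal actin, had none. Of the markers with a curated transcript, a peak in all lists was found for 2 of 5 of fat (FABP4 and PPARG, with none in any list for PLIN1), 2 of 2 of endothelium (PECAM1 and CDH5) and 1 of 2 of leukocytes (CD68, with none in any list for CD3E). It was found for 0 of 1 of nerve and Schwann cells, and for 0 of 1 of smooth and heart muscle. That 1 gene is NPPA, a heart marker, which had no peak in any list. No smooth muscle marker of the set has a curated transcript, so smooth muscle was not assessed. A peak shows neither the level of its transcript nor the number of cells, and fewer cells of a type and less RNA per cell cannot be told apart in whole muscle.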

How the data were processed

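MeRIP-seq of longissimus dorsi gave 12 samples, immunoprecipitated and input, 3 replicates per breed. The authors deposited 1 peak list per replicate; each was assigned to the immunoprecipitated sample whose description names it. Per the file headers, a peak has blocks of exon sequence, a fold enrichment (a linear ratio), a p-value and its log10. Of 13487 deposited p-values 248 are written as 0, so peaks were ranked by the deposited log10 p, a score. Per the submitters' processing notes, HOMER, ChIPseeker 1.30.2 and FastQC 0.11.9 were used, with build susScr11; which tools aligned reads and called peaks is not given in the sources used here. Starts count from 0 and were printed after adding 1. Sequencing depth is unknown, so no interval on counts was computed.

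Exons were numbered from the listed number of a peak's first exon and its blocks. Positions were taken along the gene, because not all exons were seen. Breeds were compared with exact two-sided permutation tests over lists, run on all 2159 genes. They were checked on simulated data in which every gene had covered bases in every list, without ties. The check therefore does not cover genes that lack a peak in some lists. Pairs of genes were compared with exact sign-flip tests, for which only the smallest possible p was checked. Genes named are the 4 chains, the thick filament list and the 3 nearest genes per chain. The chains and lists were chosen with earlier results of these data known. Gene names were matched to RefSeq on Sscrofa11.1. Alternatives were the stronger 50% of each list by p, equal list lengths, genomic span, peak midpoints, longer sites, each replicate left out and replicate number as a block; exon order and the MIR208B peaks were added after the data were seen. Python 3.11.15, pandas 2.3.3, NumPy 2.4.6, SciPy 1.17.1 and Matplotlib 3.10.9 were used.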

Additional observations from a re-analysis of the deposited data

How the results depend on the processing

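All 83 peaks were in the stronger 50% of their list and within the length of the shortest list, so both settings left every myosin value as it was; 231 genes with non-overlapping breeds became 128 with the stronger 50%. Over genomic span the Large White minus Ningxiang difference in covered bases changed sign for MYH1 (471.7 in place of -69.3) and MYH4 (-67 in place of 250), with introns counted. Leaving out 1 replicate gave -174.3 to 20.2 bases for MYH1, -315 to 61 for MYH2, 119.8 to 464.8 for MYH4 and -10 to 320.5 for MYH7. The sign turned without Large White replicate 3 for MYH1, without Ningxiang replicate 2 for MYH2 and without Ningxiang replicate 3 for MYH7, whose difference in peak number then ranged from -0.333 to 1.67. The MYH7 position difference ranged from -4.00 to 4.88 points, turning negative without Large White replicate 1 (-0.880) or Ningxiang replicate 2 (-4.00), and was -2.82 with the MIR208B peaks counted as MYH7. With those peaks MYH4 minus MYH7 was -0.101 points, and with peak midpoints it was -1.51 and MYH1 minus MYH4 3.00. With midpoints MYH2 minus MYH4 was -8.34 in place of -17.96 and MYH2 minus MYH7 -10.7 in place of -16.8; the mean position of MYH2 stayed below that of the other 3 genes in each alternative run. Stretches shared by every remaining list numbered 1 to 2 for MYH2, with 2 without Large White replicate 2, and 0 to 2 for MYH7, with 2 without Ningxiang replicate 3. Genes with non-overlapping breeds numbered 350 to 425 with a replicate left out, where fewer lists must not overlap. The replicate numbers gave no sign of pairing the lists across breeds. Correlations of same-numbered lists were 0.0265, -0.00276 and -0.00841, within the -0.0643 to 0.0669 of differently numbered lists. Such small values cannot show that the numbers carry no pairing. With a replicate block the differences in covered bases were -69.3, -159.7, 250 and 170 for MYH1, MYH2, MYH4 and MYH7 (exact sign-flip p = 0.25 to 0.75, n = 3 pairs, where the smallest possible is 0.25), so the block could change no call. Position along the spliced transcript, planned, was not run. A gene without a listed peak is below the calling threshold at an unknown depth.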
